A study of Rattus norvegicus with 74 samples.

Results

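Myoglobin and the enzymes and carrier that buffer high-energy phosphate in striated muscle were followed by symbol through the deposited count tables of rat skeletal muscle, muscle mitochondria and heart. The list held 7 genes, and 6 of them were matched among the 30560 genes of the tables: Mb, Ckm, Ckmt2, Ckb, Slc6a8 and Ampd1. Ak1, adenylate kinase 1, was not analysed here. The list was drawn up by function, with earlier results of these data known.

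All rats were wild-type male Wistar Kyoto animals aged 9 weeks at sampling, and all of them drank water with 8% deuterium oxide by volume. The exercise-trained arm (ExT) began treadmill running at 5 weeks of age and kept it up on 5 days of each of 4 weeks, building up to 60 min a session, at 15 m/min in the first week and 20 m/min from then on. The sedentary arm (Sed) spent the same time on a treadmill at rest. All samples date from 24 h past the final session. SM denotes whole tissue from the inner red part of the gastrocnemius, a calf muscle. MT denotes mitochondria that were immunoprecipitated from a fresh portion of the same muscle and then exposed to RNase-A and proteinase-K. LV denotes the left ventricular wall. SM and MT each held 15 Sed and 15 ExT libraries from the same 30 rats, and LV held 7 of each arm from 14 of those rats, which gives 74 libraries. RNA input was 50 ng for SM, 10 ng for MT and 100 ng for LV, and the LV libraries were made with a different kit, so kit and input cannot be told apart from tissue in any comparison across the 3 kinds of library.

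Muscle contraction splits ATP faster than respiration can replace it. Creatine kinases bridge the gap by moving phosphate between ATP and creatine: the cytosolic enzymes regenerate ATP beside the myofibrils and ion pumps, and the mitochondrial enzyme charges creatine where ATP is made. The creatine carrier fills the pool, adenylate kinase and AMP deaminase dispose of the ADP and AMP left over, and myoglobin stores oxygen in oxidative fibres and carries it towards the mitochondria.

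Promoters of 4 of the genes are printed because they form the pairs with the closest relation over all whole-muscle libraries. These pairs, described further on, are Mb with Ckmt2, and Ckm with Ampd1. Each is the RefSeq sequence of the GRCr8 build from 250 bases before to 50 bases after the annotated gene start, read 5′ to 3′ along the gene's own strand. Capitals mark E-boxes (CANNTG, the core bound by basic helix-loop-helix factors such as MyoD) and matches to the MEF2 motif, with both strands searched. Mb lies at chr7:110647693-110647992 on the minus strand, Ckmt2 at chr2:24845462-24845761 on the minus strand, Ckm at chr1:88189211-88189510 on the plus strand and Ampd1 at chr2:193287082-193287381 on the plus strand.
Mb: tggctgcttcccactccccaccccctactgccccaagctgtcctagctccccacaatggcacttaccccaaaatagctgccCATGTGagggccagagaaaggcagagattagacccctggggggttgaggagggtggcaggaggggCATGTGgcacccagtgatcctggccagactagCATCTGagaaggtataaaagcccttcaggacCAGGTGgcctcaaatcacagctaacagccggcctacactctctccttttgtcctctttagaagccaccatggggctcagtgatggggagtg
Ckmt2: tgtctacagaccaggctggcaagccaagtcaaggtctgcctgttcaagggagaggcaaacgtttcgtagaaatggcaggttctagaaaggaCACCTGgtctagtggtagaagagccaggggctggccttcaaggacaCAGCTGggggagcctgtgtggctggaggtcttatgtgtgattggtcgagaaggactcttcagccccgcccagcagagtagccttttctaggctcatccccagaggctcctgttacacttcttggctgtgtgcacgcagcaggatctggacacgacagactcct
Ckm: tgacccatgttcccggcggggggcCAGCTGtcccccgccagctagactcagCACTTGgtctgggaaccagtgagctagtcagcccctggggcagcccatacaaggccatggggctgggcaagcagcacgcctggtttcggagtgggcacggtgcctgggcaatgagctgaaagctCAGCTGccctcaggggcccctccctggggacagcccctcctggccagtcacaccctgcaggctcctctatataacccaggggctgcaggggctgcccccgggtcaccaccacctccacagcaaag
Ampd1: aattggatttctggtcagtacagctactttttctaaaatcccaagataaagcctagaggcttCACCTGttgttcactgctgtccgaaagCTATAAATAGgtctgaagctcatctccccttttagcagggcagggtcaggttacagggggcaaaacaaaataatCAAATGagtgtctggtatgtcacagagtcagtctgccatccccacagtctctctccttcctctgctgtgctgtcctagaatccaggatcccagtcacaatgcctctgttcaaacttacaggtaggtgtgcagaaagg

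All 6 genes matched an entry in the promoter table, which held 33469 sequences of this length. E-boxes numbered 4 in Mb, 3 in Ckm, 2 in Ckmt2, 2 in Ampd1, 1 in Slc6a8 and 0 in Ckb, and 72.1% of all promoters held at least 1. The MEF2 motif was found in 3.29% of all promoters and in 2 of the 6 here, Ampd1 and Ckb, with the same letters, CTATAAATAG, in both. Those letters start 161 bases before the gene start in Ampd1 and 76 bases before it in Ckb, and in both the match overlaps a match to TATAAA. That shorter motif occurred in 14.2% of all promoters, and Mb holds one that starts 60 bases before the gene start. The form TNAAGGTCA, a half-site of the estrogen-related receptors, occurred in 1.20% of promoters and in none of the 6 windows. A match is a description of letters in this window and does not show a bound factor.

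The SM libraries held 19477976 to 39401323 counts each, the MT libraries 530397 to 9988027 and the LV libraries 54645657 to 75758777. Because 12.9 to 95.4% of an MT library fell on the mitochondrial genome, levels are given as nuclear CPM, which is CPM computed over the counts on nuclear-encoded genes alone. The labelled tissues were checked against defining markers. The summed level of 7 cardiomyocyte markers was 44588 nuclear CPM or more in every LV_Sed library and averaged 15.0 in SM_Sed, while the 6 fast-fibre markers in the tables averaged 104822 in SM_Sed and 4.47 in LV_Sed. In MT both lists were present at like sums, 797 for fast fibre and 681 for cardiomyocyte in Sed rats, although cardiomyocyte markers were scarce in the muscle from which MT was made. Gene length was not used here, so a level is compared for one gene across libraries. In whole tissue, fewer cells of a type and less RNA per cell cannot be told apart.

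**Figure D1:**
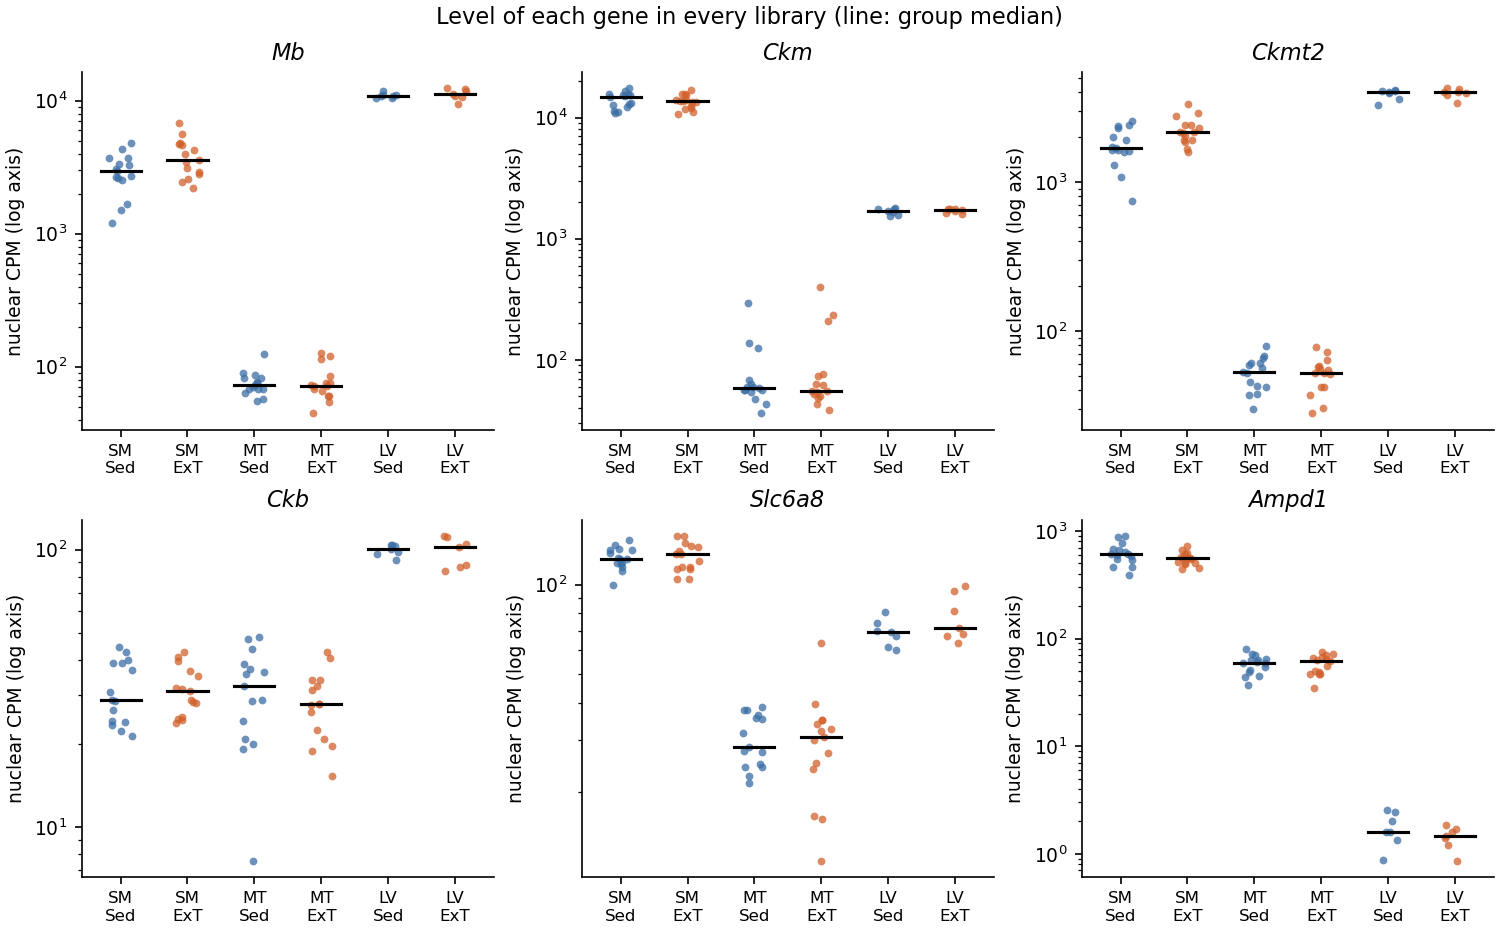
Level of each of the 6 genes in every library, in nuclear CPM on a log axis, with blue points for Sed, orange points for ExT and a black line at the group median. LV lies above SM for Mb, Ckmt2 and Ckb, SM lies above LV for Ckm, Slc6a8 and Ampd1, and MT lies far below SM except for Ckb.

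Heart and muscle differed in which of these genes they carried. Transcripts of Mb, Ckmt2 and Ckb were higher in LV than in SM, and those of Ckm, Slc6a8 and Ampd1 were lower, in each of the 7 Sed and each of the 7 ExT rats that gave both tissues. Mb, which encodes myoglobin, measured 10463, 10838 and 11839 nuclear CPM as the lowest, median and highest LV_Sed library. The same 7 rats gave 2542, 3044 and 4357 in SM. The tissues did not overlap for Mb, and the LV mean was 3.40 times the SM mean. In edgeR's quasi-likelihood test with TMM normalization, which scales to the bulk of genes, Mb was 2.33-fold higher in LV (95% interval 1.99 to 2.71, adjusted p = 2.5e-09) in Sed rats and 2.36-fold higher (adjusted p = 1.9e-07) in ExT rats. The gap between the nuclear CPM ratio and the TMM fold is shared by other genes: over 11988 genes with at least 1 nuclear CPM on average in each tissue, the median log2 ratio of nuclear CPM between LV and SM was 0.58 in Sed rats, and 0.49 over 11972 genes in ExT rats.

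All 6 genes passed an adjusted p of 0.05 in edgeR in both arms. That share has to be read against 78.7% of 14367 tested genes that passed in Sed and 79.3% of 14338 that passed in ExT, with medians over all genes of 0.04 and 0.01 on the log2 scale. By direction, 40.0% passed as higher in LV and 38.6% as lower in Sed rats, and 39.7% and 39.5% in ExT rats, beside 3 and 3 of the 6 here. With library totals as the scale the split over all genes in Sed rats was 7226 higher of 11522, against 5750 of 11301 with TMM. A call alone sets none of the 6 apart from most genes. The share of all genes without overlap between LV and SM was not counted.

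Ckm, the cytosolic creatine kinase of the myofibrils, was lower in heart, the only one of these 3 creatine kinases that was. Its LV_Sed libraries gave 1546, 1679 and 1799 nuclear CPM as lowest, median and highest, against 11004, 12689 and 15759 in the SM of the same rats. The tissues stood far apart, and edgeR put Ckm at 11.6-fold lower in LV in Sed rats (log2 fold change -3.54 ± 0.12 SE, adjusted p = 2.2e-15) and 11.2-fold lower in ExT rats.

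Ckmt2 encodes the sarcomeric creatine kinase of the mitochondrial intermembrane space. LV_Sed libraries held 3263, 4006 and 4149 nuclear CPM, and SM of the same rats 1591, 1918 and 2571. The groups did not overlap in these rats, although 1 SM_ExT library, at 3311, exceeded the lowest LV_Sed library. EdgeR put the fold at 1.34 in Sed rats (95% interval 1.16 to 1.55, adjusted p = 9.2e-04) and 1.39 in ExT rats (adjusted p = 5.3e-04), which is the smallest of the 6 differences in both arms.

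Ckb is the brain-type cytosolic isoform. Its level was 91.8, 100 and 104 nuclear CPM in LV_Sed and 21.3, 30.7 and 39.9 in the matching SM libraries. LV did not overlap SM, and the edgeR fold was 2.19 (adjusted p = 1.4e-08) in Sed and 2.32 (adjusted p = 5.9e-11) in ExT rats.

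As shares of all creatine kinase counts, Ckm took 88.4% ± 3.81 (SD, n = 15) in SM_Sed and 29.7% ± 0.877 (SD, n = 7) in LV_Sed. Ckmt2 took 11.4% ± 3.77 and 68.5% ± 0.954, and Ckb 0.203% ± 0.0634 and 1.77% ± 0.0939. These shares are not corrected for transcript length, so only their shift between tissues can be read. The coefficient of variation between rats was larger in SM than in LV for Mb, Ckm, Ckmt2 and Ckb in both arms, at 28.8% in SM_Sed and 8.22% in LV_Sed for Ckmt2 and at 34.1% and 4.26% for Mb. For Ampd1 and Slc6a8 it was smaller in SM in both arms, at 23.1% against 33.9% for Ampd1 in Sed rats and 8.60% against 10.1% for Slc6a8. The SM values come from 15 rats of an arm and the LV values from 7, and the difference in spread was not tested. The Mb to Ckm ratio within a library, which no scaling of the libraries can move, ran from 0.0735 to 0.363 in SM_Sed and from 5.99 to 7.05 in LV_Sed.

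**Figure D2:**
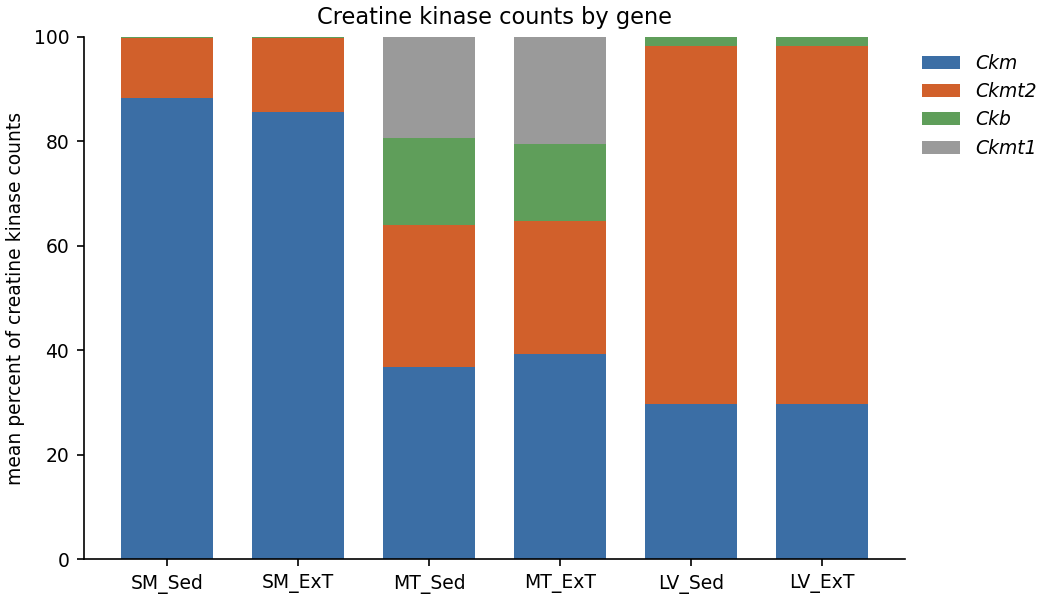
Mean percent of creatine kinase counts on each of 4 genes in the 6 groups, as stacked bars that add up to 100%. Ckm takes 88.4% of the SM_Sed bar and 29.7% of the LV_Sed bar, and Ckmt1 is visible only in MT.

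Slc6a8, the creatine transporter of the plasma membrane, was lower in heart by a modest margin. LV_Sed libraries held 60.4, 69.4 and 80.5 nuclear CPM, against 111, 123 and 141 in the matching SM libraries, with no overlap. The edgeR difference was 2.67-fold in Sed (adjusted p = 1.6e-11) and 2.22-fold in ExT rats (adjusted p = 1.6e-08). Ampd1, the AMP deaminase isoform of skeletal muscle, showed the widest gap of the 6 genes. LV_Sed libraries held 0.875, 1.59 and 2.54 nuclear CPM, from 33 to 107 counts each, and the matching SM libraries 463, 586 and 639. Ampd1 was 465-fold lower in LV in Sed rats (log2 fold change -8.86 ± 0.19 SE, edgeR adjusted p = 4.0e-17) and 514-fold lower in ExT rats (adjusted p = 1.7e-18).

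Other genes of the same pathways were split between the tissues as well. Among 28 listed genes of adenylate kinase and AMP handling, 20 were tested in Sed rats, of which 10 were higher in LV, 5 were lower and 5 did not pass, with a median log2 fold change of 0.35. The mitochondrial matrix kinase Ak4 was the furthest above SM, with a log2 fold change of 5.05 ± 0.16 SE in Sed and 4.78 ± 0.19 in ExT rats. Hprt1, the purine salvage enzyme, was higher by 2.63 in Sed rats. Adssl1, the muscle adenylosuccinate synthase that acts after AMP deaminase in the purine nucleotide cycle, was lower by -2.81 in Sed and -2.74 in ExT rats. Of 10 tested genes of AMP-activated kinase, 2 were higher and 5 lower in Sed rats, with Prkag3, a regulatory subunit known from glycolytic muscle, at -2.96 and Prkag2, another regulatory subunit, at 1.46. Of 13 tested genes for creatine supply and phosphotransfer, 5 were higher and 4 lower: the adenine nucleotide translocase Slc25a5 stood at 2.23 and the outer-membrane channel Vdac1 at -1.19. The split was less even for this list in ExT rats, with 6 higher and 1 lower of 12 tested. Globin and heme genes were even, with 6 higher and 6 lower of 19 tested. Oxygen sensing and muscle regulator genes numbered 5 higher and 16 lower of 22, led by regulators of the skeletal muscle lineage. Myod1 had 0 counts in all 14 LV libraries and 23.1, 32.8 and 52.4 nuclear CPM as lowest, median and highest in the SM of the same Sed rats, so it was at least 419.5-fold lower in LV, taking a floor of 3 counts per library. Myog had 1 count over the 7 LV_Sed libraries, against 26.6, 33.7 and 45.6 nuclear CPM in SM.

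Mitochondrial preparations held few counts of any of the 6 transcripts. MT libraries had 430162 to 1055433 nuclear-encoded counts each, and the 6 genes contributed between 6 and 190 counts to any one of them. Mb measured 55.4, 72.8 and 123 nuclear CPM in MT_Sed as lowest, median and highest, against 1208, 2956 and 4812 in SM_Sed. Ckm measured 36.2, 58.3 and 293 in MT_Sed and 11004, 14741 and 17383 in SM_Sed. Ckmt2, whose protein is imported into mitochondria after synthesis in the cytosol, measured 29.9, 53.0 and 79.7 in MT_Sed and 744, 1691 and 2571 in SM_Sed. MT and SM did not overlap for any of these 3 genes, nor for Slc6a8 or Ampd1. For each of them all 15 Sed and all 15 ExT rats had lower values in MT. The share of all genes without overlap was not counted, and most genes passed between MT and SM, as given below.

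With TMM scaling in edgeR all 6 genes passed as lower in MT than in SM in both arms. Of 22842 genes tested in Sed rats 94.8% passed in some direction, 61.7% as higher and 33.1% as lower, and of 21312 tested in ExT rats 94.3% passed, 59.3% as higher and 35.0% as lower. The median gene lay at 1.81 in Sed and 1.31 in ExT rats on the log2 scale. The split over all genes moved with the scaling: with library totals 17616 of 20427 passing genes were higher in MT in Sed, against 14086 of 21648 with TMM, and 15734 of 18192 in ExT, against 12631 of 20092. In Sed rats the log2 fold changes were -9.56 ± 0.30 SE for Ckm, -7.38 ± 0.17 for Mb, -7.18 ± 0.16 for Ckmt2, -5.55 ± 0.14 for Ampd1 and -4.15 ± 0.09 for Slc6a8. On the nuclear CPM scale the MT_Sed mean lay below that of SM_Sed by 173 times for Ckm, 38.6 times for Mb, 33.6 times for Ckmt2, 10.7 times for Ampd1 and 4.06 times for Slc6a8. The order of the 5 genes was the same on both scales, with Mb and Ckmt2 close together. Rescaling libraries moves all genes by about the same amount, so the shared order is not a separate check.

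For Ckb the size of the difference and the call depended on the scaling. TMM put it at -2.13 ± 0.14 SE in Sed rats (edgeR adjusted p = 8.8e-17), while on nuclear CPM the means were 31.3 in MT_Sed and 31.4 in SM_Sed, and 7 of 15 Sed rats had the higher value in MT. With library totals as the scale the difference was -0.58 in ExT rats (adjusted p = 0.083), and with every library thinned to the smallest total it was -0.53 in Sed (adjusted p = 0.48) and -0.43 in ExT rats (adjusted p = 0.68), which did not pass. Its share of creatine kinase counts rose from 0.203% in SM_Sed to 16.7% in MT_Sed. That of Ckmt1, which is nearly absent from SM, went from 0.000365% to 19.4%.

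Most pathway genes passed in one direction or the other between MT and SM, as did most genes. Of 14 tested genes for creatine supply and phosphotransfer 6 were higher in MT and 8 lower, the same counts in both arms. The ubiquitous mitochondrial creatine kinase Ckmt1 stood at 7.03 on the log2 scale in Sed and 6.48 in ExT rats, resting on 15 and 30 counts over all SM libraries of each arm, while the adenine nucleotide translocase Slc25a4 stood at -8.53 and -8.37 and the outer-membrane channel Vdac1 at -5.55 and -5.86. Adenylate kinase and AMP handling counted 10 higher and 12 lower of 25 in Sed, and 9 and 13 of 24 in ExT rats, with the adenylate kinase family member Ak9 at 8.66 and 9.37, from 14 and 9 SM counts. Of the AMP-activated kinase genes 2 were higher and 7 lower of 10 in Sed rats, with the catalytic subunit Prkaa2 at -4.77. Globin and heme genes gave 5 higher and 14 lower of 20, with Alas1, the first enzyme of heme synthesis, at -3.68. Oxygen sensing and muscle regulators gave 1 higher and 21 lower of 22 in both arms, with the muscle transcription factor Mef2c at -5.16 and the hypoxia-inducible factor Epas1 at -4.45 in Sed rats. These counts are on the TMM scale, and the direction of all genes shifts with the scaling as given above.

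The level of these genes in MT was set beside genes that neither tissue expressed. SM and LV libraries gave no count at all for 2628 protein-coding genes, of which 2465 were counted in MT, with a median mean level of 6.46 nuclear CPM and a 90th percentile of 17.9. Ckmt1, the ubiquitous mitochondrial creatine kinase gene, had a mean of 0.0543 nuclear CPM in SM_Sed and 36.5 in MT_Sed. Over all 30 MT libraries it averaged 38.5, beside 91.1 for Ckm, 76.9 for Mb, 58.1 for Ampd1, 52.2 for Ckmt2, 30.3 for Slc6a8 and 29.7 for Ckb. Of the silent coding genes 97.4% lay below Ckb and 97.7% below Slc6a8, and of all coding genes 48.5 and 49.2%. These comparisons between genes are not corrected for gene length.

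Ckm also varied most between MT libraries. Its coefficient of variation was 80.1% in MT_Sed and 101% in MT_ExT, against 20.0% and 20.2% for Ampd1. The 5 MT libraries with the highest Ckm, at 398, 293, 237, 211 and 137 nuclear CPM, included the 4 libraries with the highest fast-fibre marker sum. The remaining one, MT_ExT rat 28, ranked 6 of 30 by that sum. In the order of their Ckm, 95.4, 92.2, 90.6, 87.3 and 74.4% of the counts of these 5 libraries fell on the mitochondrial genome. The next 2 by Ckm, MT_Sed rat 32 and MT_ExT rat 26, had 81.2 and 79.1%, and the median MT library 45.9%. The part of these libraries and of that share in the MT results was not tested.

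Training changed none of the 6 genes past the threshold in any kind of library. In SM, 0 of 6 passed an adjusted p of 0.05 in edgeR, where 28 of 13570 genes, 0.206%, did. An unadjusted p under 0.05 was found for 3 of the 6 and for 1860 of the 13570 genes. DESeq2 also passed 0 of 6. In MT 0 of 6 passed, with 0% of 19281 genes passing, and in LV 0 of 6 passed, with 0% of 14488. No member had an unadjusted p under 0.05 in MT or LV, where 912 of 19281 and 855 of 14488 genes did. DESeq2 passed 0 of 6 there too.

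In SM, Mb ran from 1208 through a median of 2956 to 4812 nuclear CPM in Sed and from 2204 through 3560 to 6747 in ExT. The arms overlapped: 2 ExT libraries exceeded every Sed library and 3 Sed libraries lay below every ExT library. ExT lay above Sed by 0.34 ± 0.16 SE on the log2 scale, with a 95% interval of 0.02 to 0.67 and an edgeR adjusted p of 0.34. Ckmt2 ran from 744 through 1691 to 2571 in Sed and from 1587 through 2158 to 3311 in ExT, and 13 of 15 trained libraries lay above the Sed median. The trained arm was higher by 0.29 ± 0.11 SE on the log2 scale, with an interval of 0.06 to 0.52 and an edgeR adjusted p of 0.26. Ampd1 ran from 385 through 609 to 901 in Sed and from 438 through 556 to 719 in ExT, with 3 Sed libraries above every trained one. For Ampd1 the difference on that scale was -0.23 ± 0.11 SE, with an interval of -0.46 to -0.01 and an edgeR adjusted p of 0.35.

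The other 3 genes stayed closer to 0 in SM. Ckm had a log2 fold change of -0.10 (95% interval -0.29 to 0.08), Ckb -0.05 (-0.25 to 0.15) and Slc6a8 -0.05 (-0.17 to 0.07). None of the tested genes of the 5 pathway lists passed in SM.

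**Figure D3:**
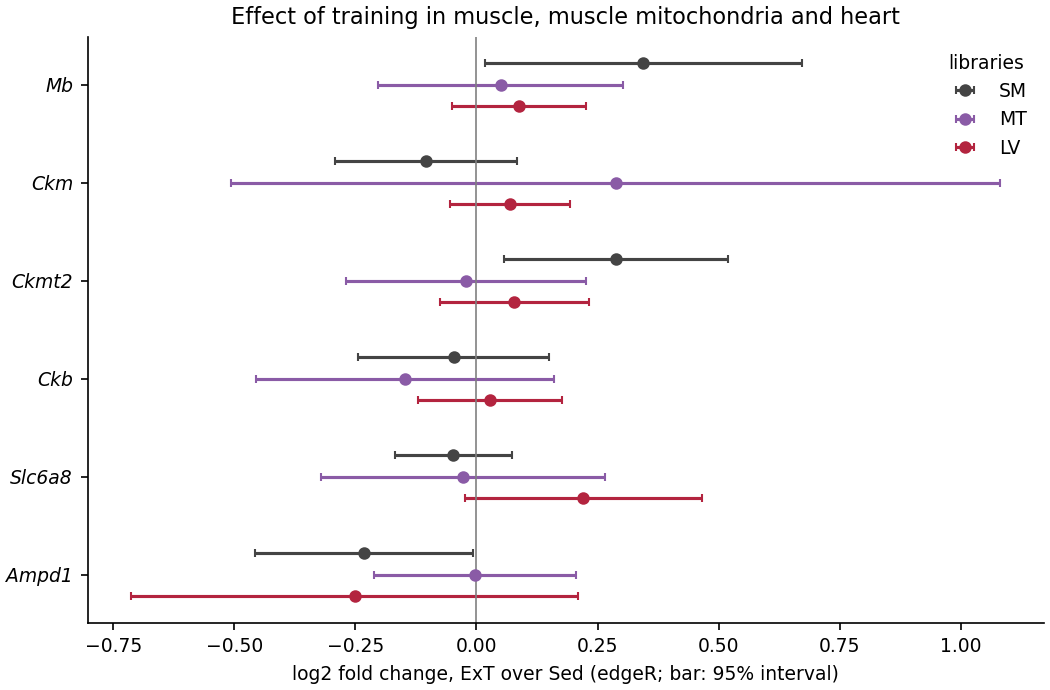
Log2 fold change of ExT over Sed for each gene in SM, MT and LV, with edgeR's estimate as a point and its 95% interval as a bar. The intervals of Mb, Ckmt2 and Ampd1 in SM lie to one side of 0 without adjustment, and that of Ckm in MT is the widest.

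In MT the estimates lay between -0.15 for Ckb and 0.29 for Ckm, and the interval of Ckm, -0.51 to 1.08, was the widest. The Ckm estimate rested on single libraries: it was 0.000023 without MT_ExT rat 2, 0.12 without rat 27, 0.15 without rat 28 and 0.58 without MT_Sed rat 15. In LV the largest were Ampd1 at -0.25 (95% interval -0.71 to 0.21) and Slc6a8 at 0.22 (-0.02 to 0.46). With 1 LV library left out in turn Ampd1 ran from -0.36 to -0.15, reaching -0.15 without rat 20 and -0.16 without rat 27 or 29, and Slc6a8 from 0.14, without rat 17, to 0.27. Slc6a8 ran from 60.4 through 69.4 to 80.5 nuclear CPM in LV_Sed and from 63.7 through 71.2 to 99.0 in LV_ExT, and 3 of 7 trained hearts lay above every sedentary one. Its edgeR adjusted p was 0.80. Mb in LV ran from 10463 through 10838 to 11839 in Sed and from 9515 through 11248 to 12342 in ExT, a log2 fold change of 0.09 with an interval of -0.05 to 0.23.

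The training effect did not differ past the threshold between kinds of library. The difference between MT and SM passed for 0 of 6 genes, with 0.0181% of 27684 genes passing, and that between LV and SM for 0 of 6, with 0% of 15049. The unadjusted p was over 0.05 for each of the 6 genes in both tests. It was under 0.05 for 2354 of the 27684 and 687 of the 15049 genes. DESeq2 passed 0 of 6 in each.

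Rats were numbered from 2 to 32, and the SM values were also looked at by number range, with 14 rats in 2 to 16 and 16 in 17 to 32. The labels do not say whether the numbers follow a date or a cohort. In each arm of LV, 1 library came from rats 2 to 16 and 6 from rats 17 to 32. The LV training test and its difference from SM therefore say little about rats 2 to 16. In rats 2 to 16, Mb averaged 2781 ± 1211 nuclear CPM (SD, n = 7) in Sed and 4781 ± 1107 (SD, n = 7) in ExT, and 6 of 7 sedentary rats lay below every trained one. In rats 17 to 32 the averages were 3071 ± 838 (SD, n = 8) and 3038 ± 798 (SD, n = 8), with the arms overlapping. Ckmt2 went from 1538 ± 503 to 2444 ± 491 in the lower range and from 1976 ± 451 to 2051 ± 389 in the higher one. Ampd1 went from 722 ± 131 to 576 ± 75.4 and from 534 ± 88.6 to 535 ± 78.0.

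Fitted within rats 2 to 16, the log2 fold changes were 0.72 for Mb (edgeR adjusted p = 0.075), 0.60 for Ckmt2 (0.053) and -0.42 for Ampd1 (0.072), and within rats 17 to 32 they were -0.05, 0.02 and -0.03. The difference of the training effect between the ranges, a test chosen after seeing the data, was -0.76 ± 0.28 SE for Mb (edgeR adjusted p = 0.26), -0.57 ± 0.21 for Ckmt2 (0.26) and 0.40 ± 0.18 for Ampd1 (0.35). It passed for 0 of 6 genes, with 0% of 13570 passing, in edgeR and for 0 of 6 in DESeq2. An unadjusted edgeR p under 0.05 was found for 3 of the 6 and for 1807 of the 13570 genes. Fibre-type markers moved with the levels of Mb, Ckmt2 and Ampd1. In rats 2 to 16 the summed level of 7 slow-fibre markers was 16001 ± 11410 nuclear CPM in Sed and 28753 ± 7711 in ExT, and that of the 6 fast-fibre markers 114025 ± 18489 and 90470 ± 9087. In rats 17 to 32 the slow sums were 21178 and 20489 and the fast sums 96770 and 98151. Myh4 makes up most of the fast sum. Over all SM libraries 5 of the 6 fast markers had negative log2 fold changes of training, while Myh2, the myosin of type IIa fibres, had 0.50 (edgeR adjusted p = 0.18). Mean sums of markers of other cells differed between arms as well, in both directions. In rats 2 to 16 red blood cell markers gave 169 in Sed and 234 in ExT, endothelium 528 and 683, nerve 63.4 and 140 and smooth muscle 269 and 400, and in rats 17 to 32 red blood cell markers gave 175 and 159, endothelium 577 and 642, nerve 88.7 and 120 and smooth muscle 336 and 434. Fibroblast, immune and fat markers gave 4181, 36.5 and 6.36 in Sed and 3520, 29.3 and 2.00 in ExT in rats 2 to 16. In rats 17 to 32 they gave 5136, 37.6 and 2.17 in Sed and 4190, 32.2 and 2.65 in ExT. None of the 7 slow markers, the 6 fast markers or the tested genes of the other marker lists passed in the SM training test. The part of any of these markers in the values of Mb, Ckmt2 and Ampd1 was not tested.

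**Figure D4:**
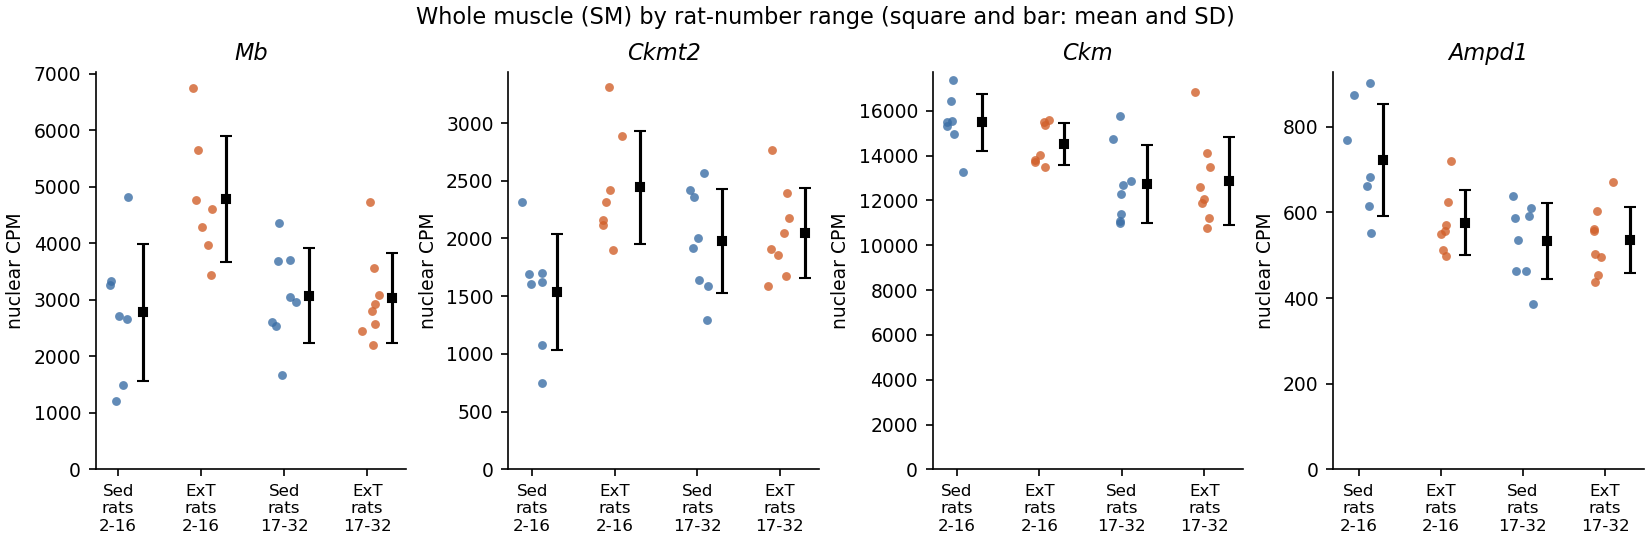
Nuclear CPM of 4 genes in SM by rat-number range and arm, with a point for each rat and a square with bar for the mean and SD. In rats 2 to 16 the mean of Mb is 2781 in Sed and 4781 in ExT, and in rats 17 to 32 it is 3071 and 3038.

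The 2 closest relations over all 30 muscle libraries were those of Mb with Ckmt2 and of Ckm with Ampd1. Across the 30 SM libraries, on log2(nuclear CPM + 1) with the mean of each arm removed, Mb and Ckmt2 rose and fell together, with Pearson r = 0.86 and Spearman rho = 0.80. Both had an adjusted permutation p of 0.00015 over 15 pairs of genes, the smallest that 100000 resamples can give. Without the 2 rats farthest from the median of Mb r was 0.79, and it was 0.97 in rats 2 to 16 and 0.75 in rats 17 to 32. Ckm and Ampd1 gave r = 0.67 (adjusted permutation p = 0.0003) and rho = 0.66 (0.00067), with r = 0.64 without the 2 farthest rats, 0.42 in rats 2 to 16 and 0.57 in rats 17 to 32. Ckmt2 and Ampd1 went in opposite directions, with r = -0.47 (adjusted permutation p = 0.031) and rho = -0.47 (0.048). For Ckmt2 and Ckb r was 0.49 (adjusted permutation p = 0.027) but rho was 0.43 (0.056), and r was 0.26 within rats 17 to 32. Mb and Ckm, r = 0.01 (adjusted permutation p = 0.96), did not pass, and r was -0.49 in rats 2 to 16 and 0.14 in rats 17 to 32. Ckm and Slc6a8 did not pass over all 30 libraries, r = 0.30 (adjusted permutation p = 0.18), yet r was 0.78 in rats 2 to 16 and 0.63 in rats 17 to 32. Only the arm mean was removed, so shifts in level between the ranges stay in r, rho and p over all 30 libraries. In Sed rats Ckm averaged 15482 nuclear CPM in rats 2 to 16 and 12724 in rats 17 to 32. In the same order Ampd1 averaged 722 and 534 and Slc6a8 118 and 127. The part of these shifts in the relations was not tested.

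The same genes also followed fibre-type and blood markers across the 30 SM libraries, in a family of 54 relations between the 6 genes and 9 marker sums. With the slow-fibre sum, Mb gave r = 0.80 (adjusted permutation p = 0.00011) and rho = 0.76 (0.00018), Ckmt2 r = 0.68 (0.00023) and rho = 0.65 (0.0011), and Ampd1 r = -0.61 (0.0022) and rho = -0.63 (0.0020). With the fast-fibre sum, Mb gave r = -0.78 (adjusted permutation p = 0.00011) and rho = -0.77 (0.00027), Ckmt2 r = -0.74 (0.00011) and rho = -0.67 (0.00063), Ampd1 r = 0.77 (0.00011) and rho = 0.79 (0.00018), and Ckm r = 0.44 (0.051) and rho = 0.46 (0.045). With red blood cell markers, Mb gave r = 0.77 (adjusted permutation p = 0.00011) and rho = 0.81 (0.00018), and Ckmt2 r = 0.71 (0.00018) and rho = 0.68 (0.00054). Mb and Ckmt2 also passed for r and rho with endothelium, r = 0.60 and 0.62, and with nerve markers, r = 0.47 for both. Ckb passed for both measures with immune markers, r = 0.58. Ampd1 with smooth muscle, and Ckb with blood, endothelium and fibroblast markers, passed for r but not for rho. For Mb, Ckmt2 and Ampd1 these relations to fibre markers, and for Mb and Ckmt2 those to blood markers, kept their sign in both rat-number ranges, with sizes of r from 0.53 to 0.89. Without the 2 rats farthest from the median of the marker sum, r of Mb was 0.74 with slow, -0.76 with fast and 0.73 with blood markers, r of Ckmt2 0.67, -0.69 and 0.67, and r of Ampd1 -0.66 with slow and 0.68 with fast markers. The part of fibre make-up in the pairs was not tested.

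**Figure D5:**
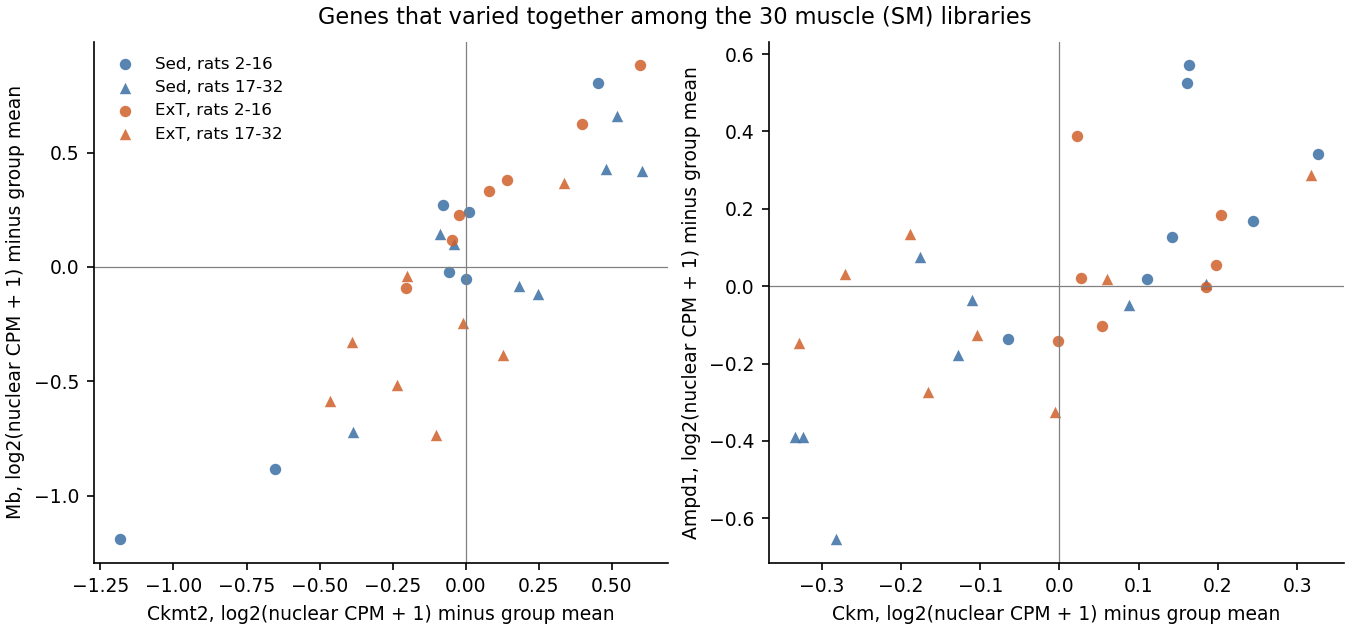
Ckmt2 against Mb, and Ckm against Ampd1, in the 30 SM libraries as log2(nuclear CPM + 1) minus the arm mean, with circles for rats 2 to 16 and triangles for rats 17 to 32. Both pairs run from lower left to upper right, with r = 0.86 and r = 0.67.

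Among 9455 nuclear-encoded genes with a symbol and at least 5 nuclear CPM in SM, those most like Mb over the 30 libraries were Dmac2, an assembly factor of the distal arm of respiratory complex I, with r = 0.96, the microsomal glutathione transferase Mgst3 with r = 0.96 and the cytosolic malate dehydrogenase Mdh1 with r = 0.96. Those most like Ckmt2 were Uqcrc2, a core subunit of complex III, with r = 0.94, Cox5a, a subunit of cytochrome c oxidase, with r = 0.94 and Aifm1, a flavoprotein of the intermembrane space, with r = 0.93. Those most like Ckm were the phosphatase Phospho1 with r = 0.89, the gene AABR07051450.1 with r = 0.88 and Sync, the desmin-binding protein syncoilin, with r = 0.87. Within rats 2 to 16 and rats 17 to 32, r with Ckm was 0.63 and 0.90 for Phospho1. It was 0.83 and 0.81 for AABR07051450.1 and 0.77 and 0.83 for Sync. For the genes named for Mb and Ckmt2 it was 0.87 or more in both ranges. These values describe libraries that differ in depth and muscle make-up, and the part of either in them was not tested.

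No relation was found between the muscle and the heart of the same animal. Over the 14 rats with both tissues, r between SM and LV ran from -0.29 for Ckb to 0.31 for Ampd1, and the smallest adjusted permutation p over the 6 genes was 0.68 for r and 0.62 for rho. For Mb r was -0.01, and 0.21 without the 2 farthest rats, so a relation was not detectable with 14 rats.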

How the data were processed

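Counts per gene were measured in 74 libraries, and the authors deposited them as whole-number counts in 3 tables, with no column of any other sample. Per the submitters' processing notes, tools included FastQC 0.74, cutadapt 4.6, STAR 2.7.11a and HTSeq with build mRatBN7.2. The strand setting is not given in the sources used here, so reads of overlapping or antisense genes cannot be told apart. Groups came from the sample titles. Tests used edgeR 4.0.16 (TMM, filterByExpr, robust quasi-likelihood fits) with Benjamini-Hochberg adjustment over all genes tested and a threshold of 0.05, and the code was tested on simulated data. DESeq2, other scalings, no filter, nuclear-encoded genes only, rat-number ranges, thinning and each library left out were the alternatives. Levels are nuclear CPM, and a library's floor of 3 counts was 2.84 to 6.97 nuclear CPM in MT and at most 0.226 elsewhere. The SD of a level is taken over the observed libraries, so it includes their counting error.

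The 6 genes, all of those matched, are named in each comparison. From each pathway list at most the 3 genes with the largest change among those passing, with a mean of at least 5 CPM, are named, and for Mb, Ckm and Ckmt2 the 3 genes with the most similar pattern. One gene that this rule names is not reported here. Ak1 could not be matched by symbol, so 15 pairs of genes, 54 relations to marker sums in SM and 6 relations between tissues were computed. The members and lists were chosen with earlier results of these data known. Same-numbered libraries come from the same rat, so rat number gives the pairing. The median correlation of their deviations from the group means over genes was 0.02 for MT with SM and 0.04 for LV with SM. Between different rats it was 0.00169 and -0.00309. An SM library correlated best with the library of its own rat for 1 of 30 rats in MT and 3 of 14 in LV. These correlations do not by themselves show the pairing. Within groups no 2 libraries agreed within sampling noise by chi-square (smallest value per degree of freedom 1.20). This value cannot show that libraries come from separate animals. Each library counts as a replicate because the titles give a different rat number to each library of a group.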

Additional observations from a re-analysis of the deposited data

How the results depend on the processing

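The count of members past the threshold was 0 for training in SM, MT and LV and for both differences of training effects, and 6 for LV against SM in both arms, under each alternative run. For MT against SM it was 6 except for Ckb, which fell out with thinning (-0.53 in Sed, -0.43 in ExT) and with library totals in ExT (-0.58), leaving 5. The rat as a replicate block, which pairs the libraries of one animal, gave 6 of 6 in each tissue comparison and 0 of 6 in each difference, and changed no other call. A block was not possible for training, where each rat has 1 arm. Signs that turned all belong to values that did not pass. In SM training these were Ckb in rats 2 to 16 (0.088) and Mb in rats 17 to 32 (-0.049). In MT training they were Mb (-0.12), Slc6a8 (0.13) and Ampd1 (0.0044) with library totals, Ckm with DESeq2 (-0.054), Ampd1 with the range as a term (0.0030), and Mb (-0.27), Slc6a8 (0.12) and Ampd1 (0.12) in rats 2 to 16. For the difference between MT and SM they were Slc6a8 with DESeq2's size factors in edgeR (0.019), library totals (0.13), DESeq2 (0.016) and rats 2 to 16 (0.14), and Mb (0.31), Ckb (0.011) and Ampd1 (-0.068) in rats 17 to 32. For that between LV and SM it was Mb with library totals (-0.019). Leaving out each library in turn moved MT training between -0.035 and 0.039 for Ampd1, -0.083 and 0.039 for Ckmt2, -0.023 and 0.12 for Mb, -0.12 and 0.036 for Slc6a8 and 0.000023 and 0.58 for Ckm, and LV training of Ckb between -0.015 and 0.062. The cause was not tested.

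Over all genes, the SM training count was 28 in edgeR, 132 in DESeq2, 45 with the range as a term, 396 in rats 2 to 16 and 1 in rats 17 to 32. It was 12 to 18 without rat 4, 5, 6, 7, 8, 10, 12, 14, 20, 24, 25 or 27, and 46, 69 and 100 without rat 30, 29 or 23. The count for the difference between MT and SM was 5 in edgeR, 32 in DESeq2, 20 in rats 2 to 16, 1 in rats 17 to 32, 0 with library totals and 3 with the replicate block. That between LV and SM was 0 in edgeR and 3 in DESeq2, and that between the rat-number ranges 0 in edgeR and 54 in DESeq2. MT against SM passed 3923 genes in Sed and 1988 in ExT after thinning. Depth limits MT most, where Ckb rested on 6 to 44 counts a library.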
